A study of Rattus norvegicus with 36 samples.

Results

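The genes described here are 8 genes of the rat MHC class II presentation pathway: Cd74, Ciita, RT1-Ba, RT1-Bb, RT1-Da, RT1-Db1, RT1-DMa and RT1-DMb. They were taken as the probe sets whose platform annotation gives only 1 of these symbols, which found 14 of the 31099 probe sets on the array. All 14 passed the filter on low values, and the 8 genes are 8 of the 11773 genes tested. Where a gene had several probe sets, the one with the highest mean over all arrays stood for the gene, and the others are described beside it. The arrays hold 33 mammary cancers and 3 normal mammary tissues of female Sprague-Dawley rats, an outbred stock.

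MHC class II molecules are pairs of an alpha and a beta chain that show peptides from ingested proteins to CD4+ T cells, and in the rat they come as RT1-B and RT1-D. Dendritic cells, macrophages and B cells carry them, and epithelial cells can gain them under interferon gamma. The invariant chain Cd74 fills the groove until proteases cut it away, RT1-DM then exchanges its remnant for a peptide, and Ciita is the coactivator that switches these genes on together.

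The cancers fell into 9 groups. Those after 1 Gy of whole-body gamma radiation and 40 mg/kg of MNU, an alkylating agent, comprised 5 with and 4 without an H-ras mutation. Radiation with PhIP, a mutagen of cooked meat given at 40 mg/kg per day, preceded 4 nonmutated cancers, and radiation alone preceded 4 nonmutated ones. MNU alone preceded 5 mutated and 4 nonmutated cancers, and PhIP alone preceded 1 mutated and 3 nonmutated cancers. The remaining 3, all nonmutated, were spontaneous cancers of untreated rats, and the 3 normal tissues also came from untreated rats. Treatment began at 7 weeks of age, with either chemical given after the radiation in the combined groups, and the diet of every rat held 23.5% corn oil from 9 weeks. The labels do not say that the samples came from separate rats, so p-values measure the spread between these samples, and they give no age at sampling. All values are deposited array intensities, and log2 values are log2(intensity + 42.8).

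Some facts of the arrays touch what follows. MNU nonmutated cancer 4 had a hexokinase 3'/5' ratio, a measure of RNA integrity, of 12.3, and its median intensity of 161.4 was the lowest of the series. The epithelial markers were high throughout, with a mean log2 of 11.93 to 12.69 in the cancers and 11.46 to 12.14 in normal tissue. Adipocyte markers averaged 7.72 ± 0.27 in the cancers (SD, n = 33) and 11.55 ± 0.40 in normal tissue (SD, n = 3).

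Class II promoters share a box pair that binds the RFX complex and NF-Y, and the stretches that hold a matching pair of letters are shown so that they can be read side by side. Promoter sequences of 6 of the 8 genes were in the RefSeq table for GRCr8, each running from 250 bases before to 50 bases after the start; the Ciita and RT1-DMb promoters were not analysed here. Each stretch is written 5' to 3' on the gene's strand, and the capitals mark GNNAC and, 15 to 35 bases further, CCAAT or ATTGG.
Cd74 (chr18:56526980-56527031, + strand): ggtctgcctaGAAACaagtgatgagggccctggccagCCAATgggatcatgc
RT1-Da (chr20:4515323-4515380, + strand): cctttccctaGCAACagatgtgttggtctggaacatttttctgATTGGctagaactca
RT1-Db1 (chr20:4560228-4560284, - strand): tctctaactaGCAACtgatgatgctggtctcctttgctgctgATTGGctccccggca
RT1-Ba (chr20:4576971-4577028, + strand): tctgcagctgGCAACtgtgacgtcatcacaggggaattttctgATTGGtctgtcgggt
RT1-Bb (chr20:4604165-4604221, - strand): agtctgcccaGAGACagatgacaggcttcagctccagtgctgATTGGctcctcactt
RT1-DMa (chr20:4712385-4712442, - strand): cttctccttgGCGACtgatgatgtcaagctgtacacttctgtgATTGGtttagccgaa

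In the 5 RT1 genes 27 or 28 bases separate the parts, and in Cd74 22 bases do. The letters were chosen with these promoters in view, and both strands were searched. The pair was found in 6 of 6 promoters of these genes and in 18.5% of the 33469 promoters in the table, and CCAAT alone on either strand in 6 of 6 and in 37.5%. A match is a description of the letters and not a binding site.

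The first comparison asked how cancers differ from normal mammary tissue. None of the 8 genes passed the limma test, adjusted or at an unadjusted p under 0.05, beside 34.4% of all 11773 genes passing, 18% higher and 16.3% lower in the cancers. The invariant chain Cd74 ran in the cancers from 1481 to 11478 with a median of 6840, and it measured 7118, 5764 and 8652 in the 3 normal tissues. The cancers lay on both sides of normal tissue, 8 above all 3, 13 below all 3 and 12 within their range. On the log2 scale Cd74 averaged 12.55 ± 0.70 in the cancers (SD, n = 33) and 12.80 ± 0.29 in normal tissue (SD, n = 3), a difference of -0.25 with a 95% interval of -1.05 to 0.55 (limma adjusted p = 0.645).

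The RT1-D chains pair on the cell surface and were measured by 3 probe sets. RT1-Da, the alpha chain, ran from 1219 to 10311 with a median of 5870 in the cancers, and it measured 6381, 5023 and 6657 in normal tissue. Its difference was -0.26 (limma adjusted p = 0.601). RT1-Db1, the beta chain, was measured by a probe set that can bind related sequences (1370383_s_at). It ran from 329 to 5558 with a median of 2291 in the cancers, and normal tissue was tightly grouped at 2021, 1795 and 1992. Of the cancers 19 lay above and 12 below all normal tissues, and the difference was 0.13 with an interval of -0.89 to 1.15 (limma adjusted p = 0.864). The other RT1-Db1 probe set, 1370382_at, ran from 36.1 to 1114 in the cancers and from 69.5 to 214 in normal tissue. On it 13 cancers lay above and 5 below all normal tissues, and the difference was 0.38 (limma adjusted p = 0.617 over all probe sets).

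The genes of peptide exchange and transcription had narrower intervals. RT1-DMa ran from 567 to 1920 in the cancers and from 802 to 1216 in normal tissue, a log2 difference of -0.07 with an interval of -0.56 to 0.41. RT1-DMb ran from 1095 to 2744 in the cancers and from 1428 to 1749 in normal tissue, a difference of 0.13 with an interval of -0.24 to 0.50. Ciita, by a probe set that can bind several transcripts (1369214_a_at), ran from 147 to 479 in the cancers and from 250 to 327 in normal tissue, a difference of -0.08 with an interval of -0.47 to 0.31. Its second probe set, 1379381_at, ran from 86.7 to 461 in the cancers and from 148 to 181 in normal tissue, a difference of 0.12 (limma adjusted p = 0.745 over all probe sets). The 3 intervals of these genes leave room for a difference of up to 0.56 on the log2 scale. RT1-Ba and RT1-Bb had the widest intervals, -3.03 to 0.70 and -2.06 to 1.22, and their probe sets are described further on.

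**Figure D1:**
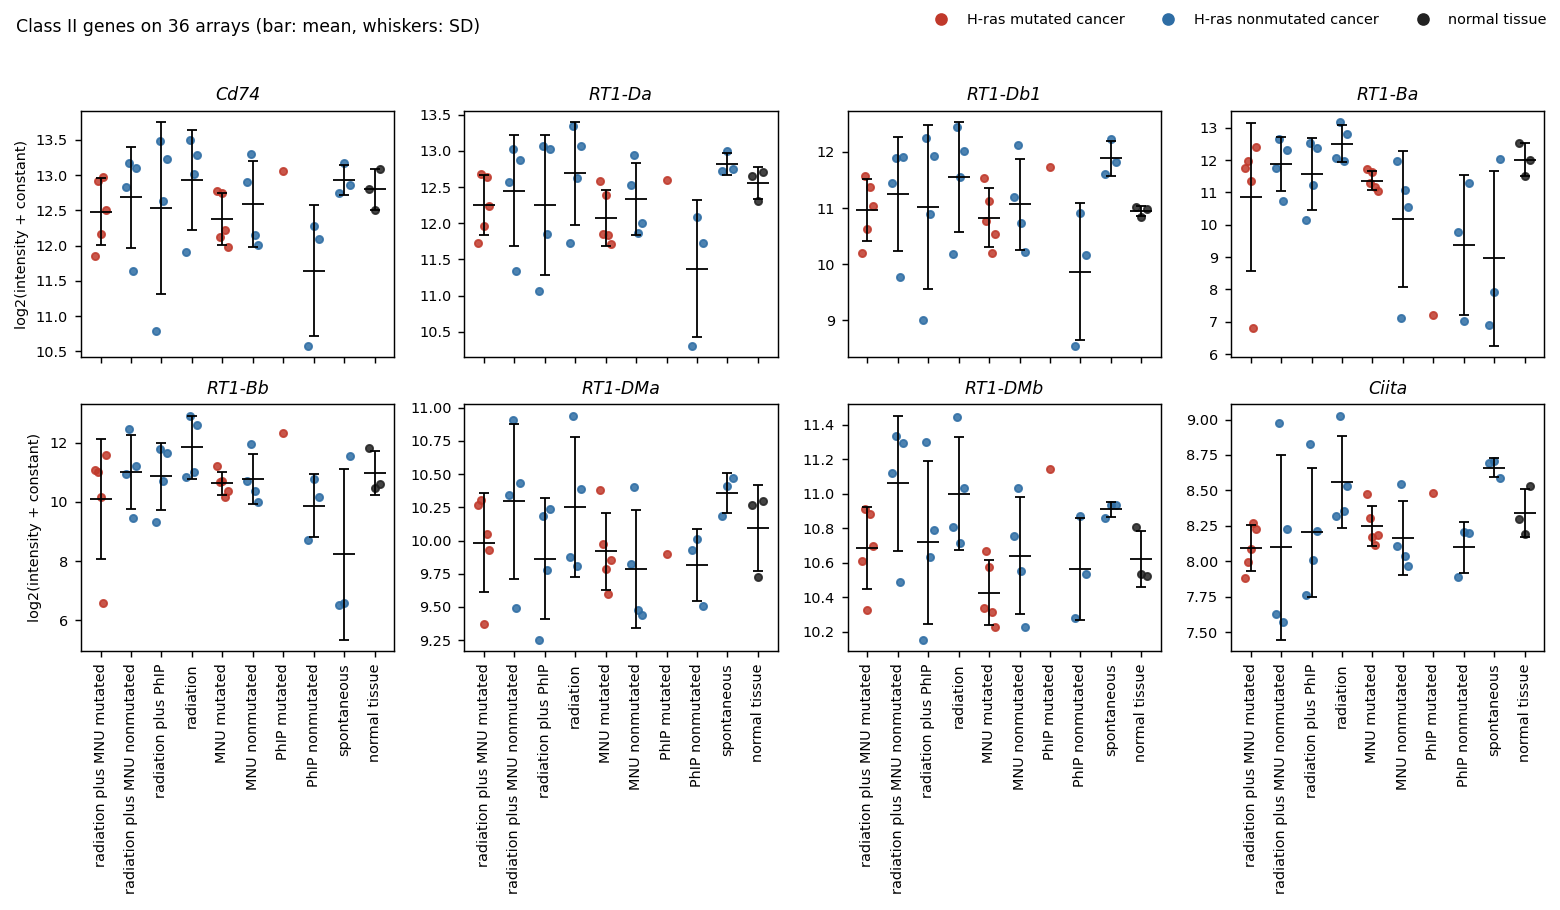
Level of each class II gene on the 36 arrays, as log2(intensity + 42.8), by group. Points are arrays, bars are group means and whiskers SD. For Cd74, 8 cancers lie above and 13 below all normal tissues, and 6 cancers stand far below the rest for RT1-Ba.

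Many markers of the cells that carry class II fell in the cancers, and so did those of other cell types, 7 of 7 measured endothelial markers (median log2 difference -1.05) and 8 of 9 measured adipocyte markers (median -4.52). The whole piece of tissue was measured, so fewer cells of a type and less RNA per cell cannot be told apart. Among general leukocyte markers 6 of 8 fell in the cancers, with a median log2 difference of -0.83, against 0.02 over all genes. Lcp1, an actin bundler of blood cells, fell by 0.90 on the log2 scale (limma adjusted p = 0.00235). Coro1a, an actin regulator of blood cells, fell by 1.28 (limma adjusted p = 0.00442), and Ptprc, the CD45 phosphatase, fell by 0.88 (limma adjusted p = 0.0253). Among macrophage markers 6 of 12 fell, with Cd68, a lysosomal glycoprotein, down by 1.12 (limma adjusted p = 0.00309). The complement genes C1qa, C1qb and C1qc did not pass, with differences of -0.00, 0.23 and 0.05. Of the dendritic cell markers 7 of 12 were measured and 4 of these fell, among them the integrin Itgax, by 1.05 (limma adjusted p = 0.00927), and Cd83, by 0.65 (limma adjusted p = 0.00606). Of the B cell markers 4 of 10 were measured and 0 passed; Cd79a, Cd79b and Pax5 were among those that did not pass the filter on low values. Among T and NK cell markers 1 of 13 fell, Cd5, by 0.54 (limma adjusted p = 0.0324), beside 16.3% of all genes that fell.

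The mean log2 of the leukocyte markers ran from 8.38 to 10.10 in the cancers and from 9.81 to 10.40 in normal tissue. For dendritic cell markers it ran from 7.65 to 8.99 in the cancers and from 8.68 to 9.26 in normal tissue, and for macrophage markers from 8.80 to 11.03 in the cancers and from 10.08 to 10.49 in normal tissue. The part of these cells in the class II levels was not tested.

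RT1-DMb was also set against the dendritic cell markers on the same array, 1 of 18 such comparisons of class II genes with marker lists. They were added after the values had been seen. This comparison had the smallest p of the 18, and because it was picked that way its p is not used here. The gene's log2 level minus the mean of the markers averaged 2.36 ± 0.23 in the cancers (SD, n = 33) and 1.67 ± 0.16 in normal tissue (SD, n = 3). RT1-DMb itself differed by 0.13, and the marker mean averaged 8.39 in the cancers and 8.96 in normal tissue, so most of this gap lies in the markers. Against the same markers the gap was 0.69 for RT1-DMb and for RT1-Db1, 0.49 for RT1-DMa and 0.48 for Ciita. It was 0.31 for Cd74 and 0.30 for RT1-Da.

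Genes that work beside the class II molecules did not move as one. Of 12 listed genes of peptide loading and turnover 10 were measured, and 5 fell while 0 rose, beside 16.3% of all genes that fell and 18% that rose. They were the lysosomal proteases Ctsb (-0.80, limma adjusted p = 1.36e-05), Ctsl (-1.01, adjusted p = 3.4e-05), Ctsd (-0.95, adjusted p = 4.85e-05), Ctsh (-0.77, adjusted p = 0.00056) and Ctss (-0.67, adjusted p = 0.0481). Ctss is the protease known for the last cuts of the invariant chain. The lysosomal thiol reductase Ifi30 differed by -0.32 and the ubiquitin ligase Marchf1, which removes class II molecules from the surface, by -0.35, and neither passed. RT1-DOa and RT1-DOb, which restrain RT1-DM, did not pass the filter on low values.

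Among 8 measured transcription factors of class II promoters 2 rose and 2 fell, beside 18% of all genes that rose and 16.3% that fell. Rfx5, the subunit of the RFX complex that carries its DNA-binding domain, rose by 0.89 ± 0.11 (SE, limma adjusted p = 2.67e-07), averaging 10.75 in the cancers and 9.86 in normal tissue. Nfyb of the CCAAT-binding NF-Y complex rose by 0.29 (limma adjusted p = 0.048), its partner Nfyc fell by 0.33 (limma adjusted p = 0.00524), and the acetyltransferase Kat2b fell by 0.76 (limma adjusted p = 1.06e-05). In the interferon gamma axis 2 of 6 measured genes fell, the receptor chain Ifngr1 by 0.62 (limma adjusted p = 0.0396) and the kinase Jak1 by 0.59 (limma adjusted p = 0.00131). Irf1, a target of interferon gamma, differed by 0.43 (limma adjusted p = 0.0673), and Ifng did not pass the filter.

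Class I presentation, which shows peptides from inside the cell, had 5 genes up and 2 down of 12, beside the same 18% and 16.3% of all genes. The immunoproteasome subunit Psmb9 rose by 1.52 (limma adjusted p = 1.31e-08), and the peptide transporters Tap2 and Tap1 rose by 0.91 (adjusted p = 6.76e-05) and 0.65 (adjusted p = 0.00135). B2m, the light chain of class I molecules, fell by 0.35 (limma adjusted p = 0.00934). Of 7 costimulatory genes 2 were measured and 0 passed, Cd86 with -0.32 (adjusted p = 0.145) and Icam1 with -0.01 (adjusted p = 0.971). The lists were not tested against each other.

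**Figure D2:**
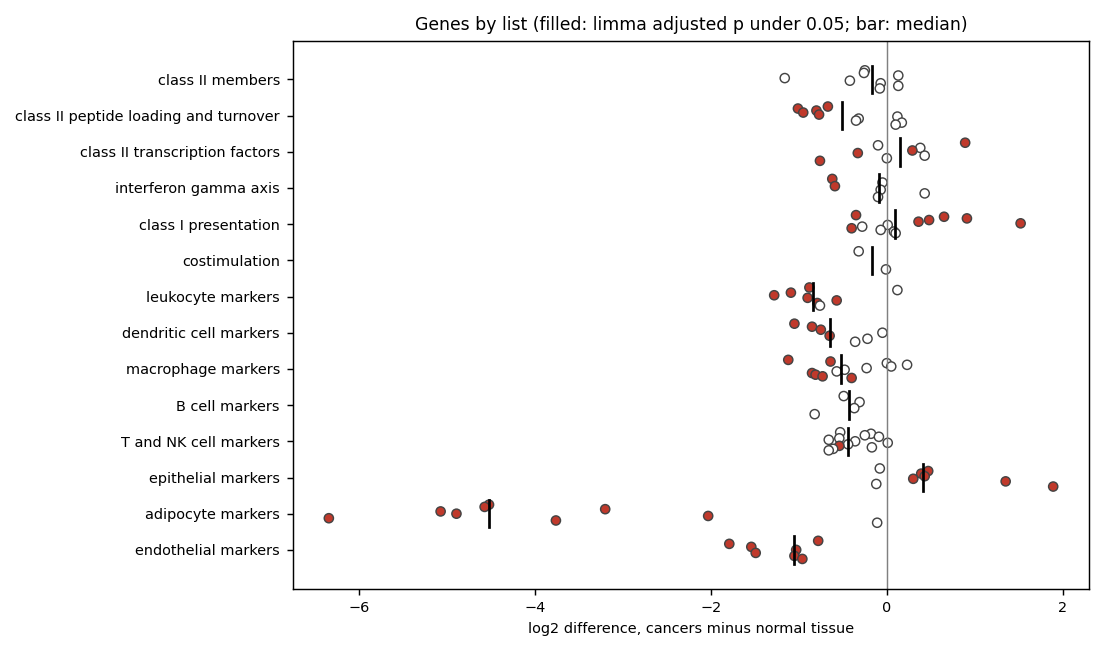
Log2 difference of single genes, cancers minus normal tissue, by list. Filled points passed limma at an adjusted p under 0.05, and bars mark list medians. The 8 class II genes hold no filled point, while 6 of 8 leukocyte markers lie below 0 and are filled.

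Among the groups with several arrays, the mean log2 level of Cd74 was 12.93 in both radiation and spontaneous cancers, the highest, and 11.65 in nonmutated PhIP cancers, the lowest. The single PhIP mutated cancer had 13.06. It measured 3666, 7678, 4566, 7964 and 5777 in mutated and 7278, 9150, 3134 and 8753 in nonmutated radiation plus MNU cancers. Radiation plus PhIP cancers had 1719, 11398, 6297 and 9571, and radiation cancers 3805, 11478, 8253 and 9980. Both of these last groups held an array below and an array above every normal tissue, as did the nonmutated radiation plus MNU and the nonmutated MNU cancers.

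After a single chemical, MNU cancers had 6985, 4408, 6837, 4748 and 4012 with and 7584, 10046, 4511 and 4080 without the H-ras mutation. The PhIP mutated cancer had 8502, and the PhIP nonmutated cancers, labelled replicates 2, 3 and 4, had 1481, 4914 and 4308, all below every normal tissue. The lowest of them, PhIP nonmutated cancer 2, also had the lowest leukocyte and dendritic cell marker means of the cancers, 8.38 and 7.65, whose part in its level was not tested. Spontaneous cancers had 6840, 9175 and 7418. In the order of the 9 groups with several arrays, the 8 gaps between neighbours were smaller than the larger SD of the pair for each of the 8 genes.

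Among the same groups RT1-Da and RT1-Db1 had spontaneous cancers at the top, radiation cancers next and PhIP nonmutated cancers at the bottom. RT1-Da averaged 11.37 ± 0.94 in PhIP nonmutated cancers (SD, n = 3) and 12.56 ± 0.22 in normal tissue (SD, n = 3), and the individual values were 1219, 4303 and 3351 in these cancers, all below the normal tissues. The difference of -1.18 did not pass (limma adjusted p = 0.0727), and Cd74 with -1.15 did not either (limma adjusted p = 0.11). Without PhIP nonmutated cancer 3 the difference of RT1-Da was -1.54 and passed (limma adjusted p = 0.0452). Cancer 3 had the highest RT1-Da of this group, 4303, and PhIP nonmutated cancer 2 had the lowest of the series, 1219. Leaving out cancer 3 therefore gave this low array more weight in the group mean. Over the 8 comparisons of a cancer group with normal tissue, which share the 3 normal tissues, 0 of the 8 genes passed in any. The share of all genes that passed was 25.1% in mutated and 15.9% in nonmutated radiation plus MNU cancers, 23.1% after radiation plus PhIP and 22.5% after radiation. It was 29.1% in mutated and 22.3% in nonmutated MNU cancers, 24.1% in PhIP nonmutated and 23.5% in spontaneous cancers. At an unadjusted p under 0.05 there were 3 of the 8 genes in PhIP nonmutated and 2 in spontaneous cancers, beside 4361 and 4195 of the 11773 genes, and 0 in the other 6 groups.

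Within groups the class II genes varied more than most genes. The within-group SD of Cd74 was 0.70 on the log2 scale, at the 95.8 percentile of the 11773 genes, and the median of all genes was 0.25. RT1-Da had 0.64, RT1-Db1 0.91, RT1-Ba 1.65 and RT1-Bb 1.44, at percentiles of 94.2, 98.4, 99.8 and 99.8. RT1-DMa with 0.42 lay at 80.1, Ciita with 0.33 at 69.7 and RT1-DMb with 0.31 at 65.5. These values belong to the probe set used for each gene. For RT1-Ba the SD over all 33 cancers, groups not separated, was 1.91 on the probe set used, 1381593_x_at. It was 1.87 on 1392334_at, 1.77 on 1377334_at and 0.62 on 1370822_at. Over the 32 cancers of groups with several arrays, between-group differences held 23.7% of the variance of Cd74 and 37.6% of that of RT1-DMb. Groups this small hold a share of the variance even where they do not differ. These shares were neither corrected for that nor tested.

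H-ras mutation was compared within MNU and within radiation plus MNU cancers, and the mean of both differences was taken. None of the 8 genes passed, and 0% of all 11773 genes did, in the mean or within either treatment. At an unadjusted p under 0.05 limma gave 886 genes, among them 1 of the 8. This was RT1-DMb, which ran from 1157 to 1882 in the 10 mutated cancers of these groups and from 1155 to 2543 in the 8 nonmutated ones, a difference of -0.30 with an interval of -0.58 to -0.01 (limma adjusted p = 0.634). Cd74 differed by -0.21 with an interval of -0.84 to 0.42, and RT1-Da by -0.23 with an interval of -0.80 to 0.35. All 12 macrophage markers had negative differences here, with a median of -0.47, and 0 passed. These markers were measured on the same arrays and are not independent, and the list as a whole was not tested. The difference between the 2 treatments was largest among the 8 genes for RT1-Ba, -2.20 with an interval of -5.13 to 0.73 (limma adjusted p = 1). It was -1.18 without MNU nonmutated cancer 2, 1 of the 6 arrays low on this probe set.

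Radiation was compared with no radiation in 4 backgrounds of equal weight. None of the 8 genes passed, and 0% of all genes did; at an unadjusted p under 0.05 limma gave 1166 genes, 3 of the 8 among them. Cd74 differed by 0.27 with an interval of -0.20 to 0.75, and RT1-DMb by 0.23 with an interval of 0.01 to 0.45 (limma adjusted p = 0.492). The largest differences were those of RT1-Ba, 1.73 (limma adjusted p = 0.376), and RT1-Bb, 1.08 (limma adjusted p = 0.482). Of the other RT1-Ba probe sets 1392334_at gave 1.71, 1370822_at 0.01 and 1377334_at -1.10, and of RT1-Bb 1371065_at gave -1.49 (limma adjusted p of 0.572 on 1377334_at and 0.447 on 1371065_at, over the 21976 probe sets tested).

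**Figure D3:**
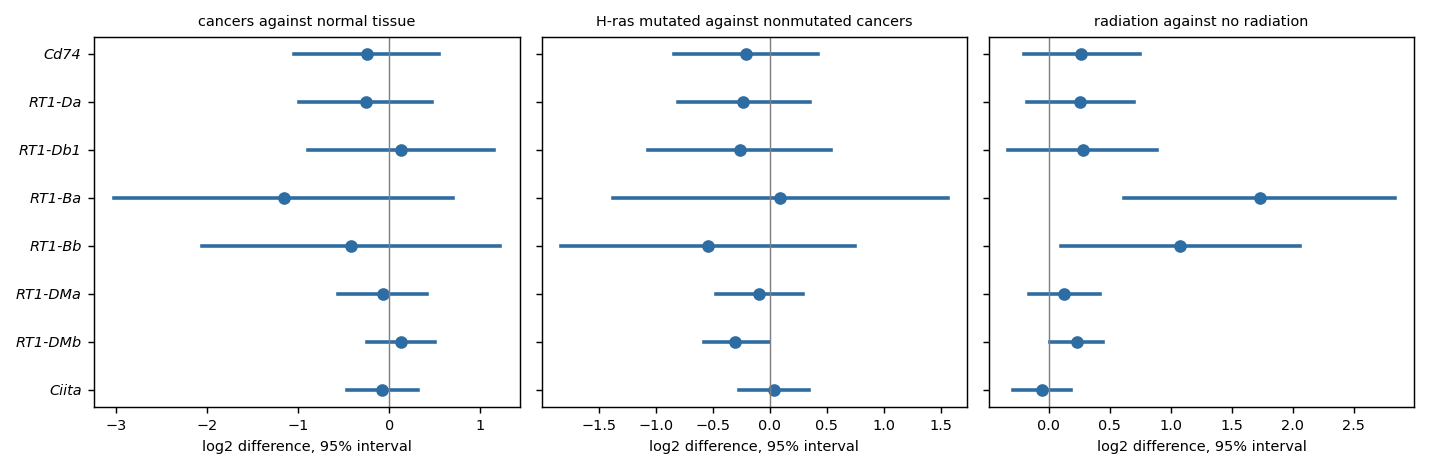
Log2 difference of each class II gene with its 95% interval, for cancers minus normal tissue, H-ras mutated minus nonmutated cancers, and radiation minus no radiation. The intervals of RT1-Ba and RT1-Bb are the widest in each panel, and 0 of the 24 differences passed at an adjusted p under 0.05.

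The 6 groups of nonmutated cancers were tested together and against the spontaneous cancers. In the F test 0 of the 8 genes passed and 0.00849% of all genes did, which is 1 gene; at an unadjusted p under 0.05 limma gave 1042 genes, among them RT1-Ba (adjusted p = 0.486) and RT1-Bb (adjusted p = 0.518). In the 5 comparisons with the spontaneous cancers, which share those 3 arrays, 0 of the 8 passed in any, and at an unadjusted p under 0.05 between 2 and 4 of them did, beside 598 to 1209 of the 11773 genes. The share of all genes that passed was 0.0764% after radiation plus MNU, 0.0255% after radiation plus PhIP, 0.0255% after radiation, 0.0425% after MNU and 0.00849% after PhIP. The RT1-D genes had negative differences in all 5, RT1-Db1 between -2.02 and -0.34. RT1-Ba depended on the probe set, with 0.42 to 3.55 on 1381593_x_at, 0.33 to 3.48 on 1392334_at, -3.79 to -0.95 on 1377334_at and -0.66 to -0.01 on 1370822_at. RT1-Bb in radiation cancers against spontaneous cancers differed by 3.62 (limma adjusted p = 0.441), and by 5.28 without spontaneous cancer 3 (limma adjusted p = 0.0158), on 1371033_at. Spontaneous cancer 3 measured 2971 on this probe set and spontaneous cancers 1 and 2 measured 49.5 and 53.3, so leaving it out kept only the low arrays. On 1371065_at the same comparison gave -3.27 with all arrays (limma adjusted p = 0.559 over all probe sets). Ciita had negative differences in all 5 on both probe sets, and in PhIP nonmutated cancers -0.56 on 1369214_a_at and -1.14 on 1379381_at, neither passing.

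RT1-B, the second class II molecule, gave an uneven pattern: some arrays lay far below the others on 1 probe set and not on another. This pattern was picked after the values had been seen and is a description. The probe set used for RT1-Ba, 1381593_x_at, can bind related sequences. On it 6 arrays measured between 70.4 and 201, and the next array 844. They were spontaneous cancers 1 and 2, MNU nonmutated cancer 2, PhIP mutated cancer 1, PhIP nonmutated cancer 3 and radiation plus MNU mutated cancer 4. A second RT1-Ba probe set, 1392334_at, was low on the same 6 arrays, 95.5 to 186 against 773 or more elsewhere; the annotation gives both the same transcript record.

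Cd74 and RT1-Da showed no such gap on these arrays, though both lay below every normal tissue in PhIP nonmutated cancer 3. In the 6 cancers Cd74 ran from 4914 to 10046 and RT1-Da from 4303 to 8128. RT1-Bb on 1371033_at, the probe set used for this gene, split them. It measured 49.5 and 53.3 in spontaneous cancers 1 and 2 and 53.1 in radiation plus MNU mutated cancer 4, against 374 or more on all other arrays. In MNU nonmutated cancer 2, PhIP mutated cancer 1 and PhIP nonmutated cancer 3 it measured 3938, 5131 and 1689.

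The other RT1-B probe sets were low on another set of arrays. RT1-Bb on 1371065_at lay between 6.94 and 38.3 on 8 arrays and at 108 or more on the other 28. RT1-Ba on 1377334_at had the same 8 arrays as its lowest, between 15.9 and 168, with the next at 380. They were radiation cancers 1, 2 and 4, radiation plus MNU mutated cancers 1 and 5, radiation plus MNU nonmutated cancer 2, PhIP mutated cancer 1 and normal tissue 1. The sets of 6 and 8 arrays share 1, PhIP mutated cancer 1. On 7 of the 8 arrays 1381593_x_at was high, 3408 to 9206.

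The fourth RT1-Ba probe set, 1370822_at, showed no such split, running from 477 to 3676 over the 36 arrays. Its 2 highest arrays were PhIP mutated cancer 1 with 3676 and MNU nonmutated cancer 2 with 3153, and the next had 2019. RT1-Db1 set these 2 arrays apart by the ratio of its probe sets 1370382_at and 1370383_s_at. It also set apart PhIP nonmutated cancer 3, which had 1302 on 1370822_at. The ratio was 0.333 in PhIP mutated cancer 1, 0.262 in PhIP nonmutated cancer 3 and 0.239 in MNU nonmutated cancer 2, and 0.114 or less on all other arrays. These 3 are the arrays low on 1381593_x_at and not on 1371033_at. RT1-B and RT1-D chains are polymorphic in rats, as background; the genotype of these rats was not analysed here, and its part in the split was not tested.

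Levels of RT1-Ba and RT1-Bb between groups therefore rest on which arrays fall in these sets. Of the 3 spontaneous cancers RT1-Ba measured 77.6, 201 and 4173 on 1381593_x_at and 3753, 4649 and 2529 on 1377334_at. Normal tissues had 5820, 2853 and 4102 on the first and 17.1, 1719 and 961 on the second. Spontaneous cancers against normal tissue gave -3.05 on the first (limma adjusted p = 0.0716) and 2.92 on the second (limma adjusted p = 0.118 over all probe sets). RT1-Bb gave -2.75 on 1371033_at (limma adjusted p = 0.0651) and 1.80 on 1371065_at (limma adjusted p = 0.215 over all probe sets). Spontaneous cancer 3, unlike 1 and 2, was not low on 1381593_x_at and 1371033_at. Leaving it out made the first difference of each gene pass, -4.59 for RT1-Ba (limma adjusted p = 0.0131) and -4.41 for RT1-Bb (limma adjusted p = 0.00421). Leaving out radiation plus MNU mutated cancer 4 left the differences as they were and gave adjusted p of 0.0343 and 0.0314, and leaving out MNU nonmutated cancer 2 gave RT1-Ba 0.0495.

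**Figure D4:**
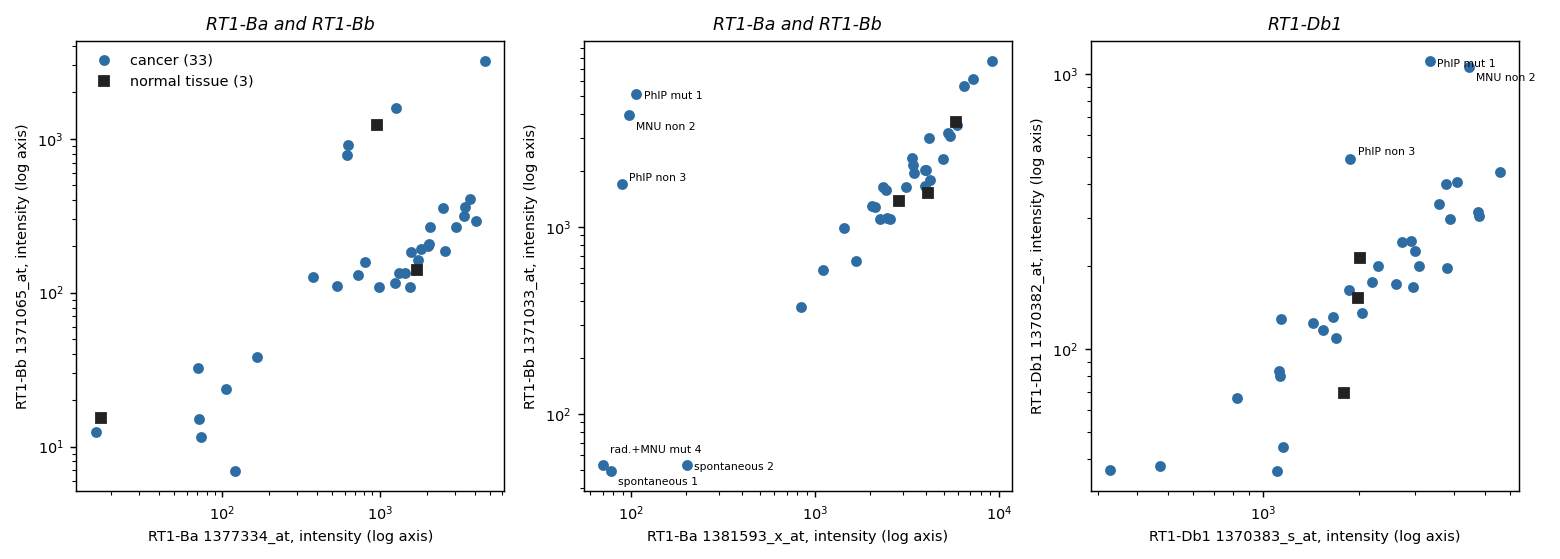
Intensity of paired probe sets on the 36 arrays, both axes logarithmic. Left, RT1-Bb 1371065_at against RT1-Ba 1377334_at, with 8 arrays low on both; middle, RT1-Bb 1371033_at against RT1-Ba 1381593_x_at, with 6 arrays low on the second, named; right, RT1-Db1 1370382_at against 1370383_s_at, with the 3 highest ratios named.

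Cd74 and the RT1-D chains varied together from cancer to cancer. Over the 33 cancers Cd74 correlated with RT1-Da at Pearson r = 0.97 and Spearman rho = 0.96, and with RT1-Db1 at r = 0.98 and rho = 0.96 (permutation, adjusted p = 3.75e-05 for r, the smallest these 15 relations gave; an unadjusted p of 1e-05 is the smallest the 100000 resamples can give). RT1-DMb followed at r = 0.77 and rho = 0.82 (permutation, adjusted p = 3.75e-05), Ciita at r = 0.66 and rho = 0.70 (adjusted p = 0.0001) and RT1-DMa at r = 0.65 and rho = 0.68 (adjusted p = 0.0001). RT1-Bb had r = 0.35 (permutation, adjusted p = 0.0649) and rho = 0.62 (adjusted p = 0.000255), and RT1-Ba r = 0.09 (adjusted p = 0.624) and rho = 0.38 (adjusted p = 0.04). Both have the low arrays described above. The labels give no batch, so none could be tested.

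The markers of antigen-presenting cells varied with Cd74 too. The mean of the dendritic cell markers had r = 0.77 and rho = 0.80 (permutation, adjusted p = 3.75e-05), and macrophage markers r = 0.68 and rho = 0.71 (adjusted p = 0.000107). Leukocyte markers had r = 0.63 and rho = 0.75 (adjusted p = 0.000206), and T and NK cell markers r = 0.55 and rho = 0.65 (adjusted p = 0.00155). Adipocyte markers had r = 0.40 and rho = 0.35 (adjusted p = 0.0351), epithelial markers r = -0.23 and rho = -0.26 (adjusted p = 0.227) and endothelial markers r = 0.14 and rho = 0.02 (adjusted p = 0.485).

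The 2 cancers farthest from the median of Cd74 were PhIP nonmutated cancer 2 (log2 of 10.57) and radiation plus PhIP cancer 1 (10.78). Without them r was 0.96 for RT1-Da and RT1-Db1 and 0.75 for RT1-DMb. Among marker lists it was 0.74 for dendritic cell, 0.62 for macrophage, 0.79 for leukocyte and 0.75 for T and NK cell markers. For adipocyte markers it was 0.29 (permutation, adjusted p = 0.174), and that relation did not pass by rho over all 33 cancers either (adjusted p = 0.063).

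B cell markers did not follow Cd74, with r = -0.30 (permutation, adjusted p = 0.0974) and rho = 0.08 (adjusted p = 0.703), and r = 0.12 without the 2 arrays. Radiation plus PhIP cancer 1 had the highest B cell marker mean of the cancers, 9.81, and normal tissue reached 8.66. The same array had the second lowest Cd74 of the cancers, 1719. Its leukocyte marker mean was 9.73 and its dendritic cell marker mean 8.01.

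**Figure D5:**
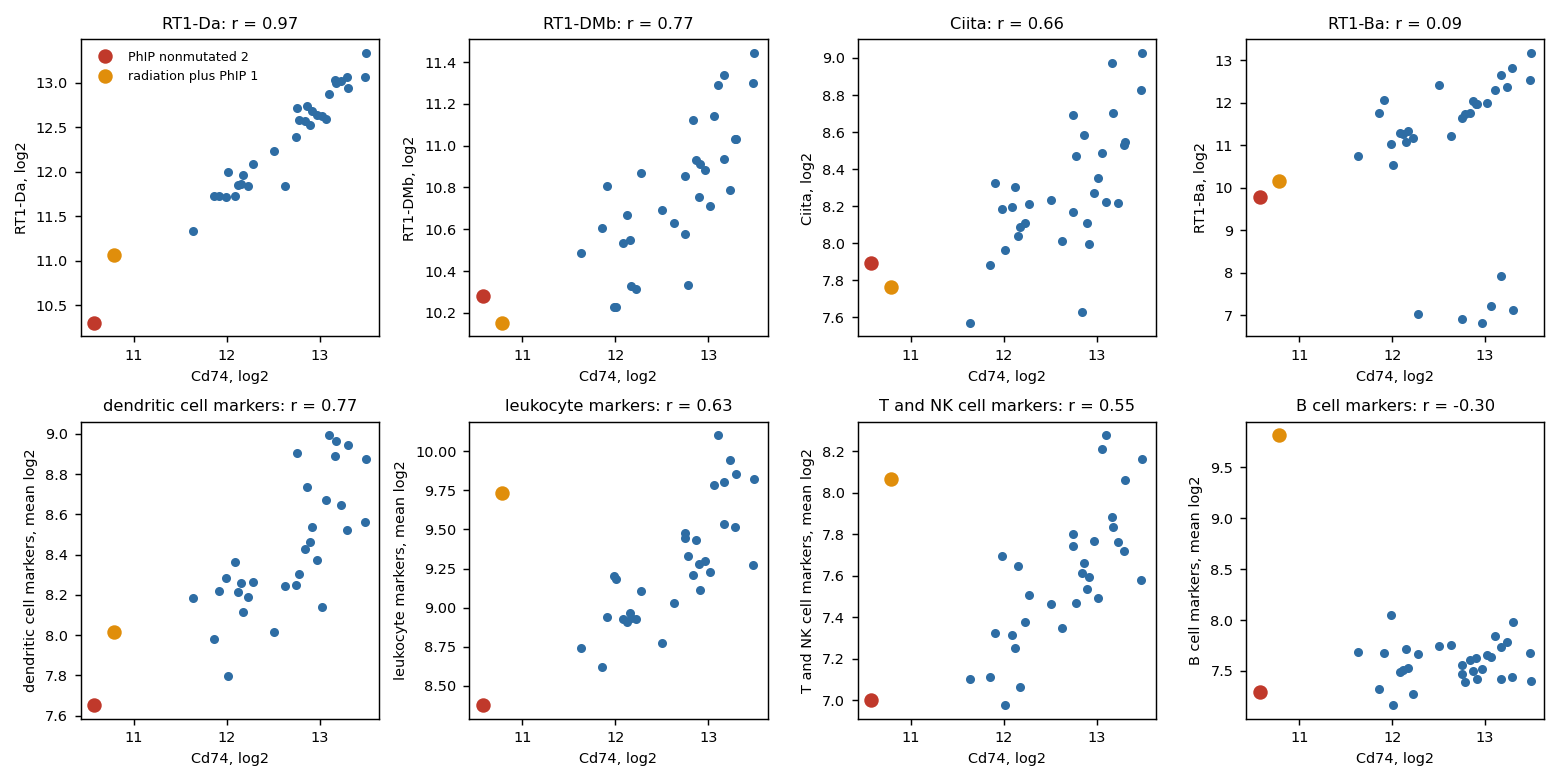
Log2 level of other class II genes and mean log2 of marker lists against the log2 level of Cd74 in the 33 cancers, with Pearson r over all of them. The 2 cancers lowest in Cd74 are coloured; RT1-Da lies along a line, RT1-Ba has 6 cancers far below the rest, and 1 cancer stands apart in B cell markers.

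The genes most like Cd74 were ranked by Pearson r over deviations from the group mean, in the 32 cancers of groups with several arrays and over 11772 genes. RT1-Db1, RT1-Da and RT1-DMb took the first 3 places with r of 0.98, 0.97 and 0.82, Ciita stood at place 45 and RT1-DMa at 57. The 8 other genes at the top were Ms4a7 (0.82), Il10ra (0.81), Mpeg1 (0.81), Itgax (0.79), Clec4a3 (0.79), Csf1r (0.77), Fgl2 (0.76) and Itgal (0.76). Csf1r is the growth factor receptor of macrophages, Mpeg1 a pore-forming protein of phagocytes, Il10ra a chain of the interleukin 10 receptor, and Itgax and Itgal are leukocyte integrins. RT1-Bb stood at place 526 and RT1-Ba at 4742.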

How the data were processed

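Intensities on a linear scale, 1 per probe set and array, were used as deposited. They came from biotin-labelled cRNA on 1-colour arrays, per the labels' protocols. The summary and scaling methods, build and scan batches are not given in the sources used here. Array medians ran from 161.4 to 222.7. Arrays carry no counts, so their number limits the precision.

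Of 31099 probe sets, 20832 carried 1 gene symbol, 436 several and 9831 none. The log2 of the intensity plus 42.8, the 20th percentile of all values, was taken. Probe sets above 125.8, the 40th percentile, on at least 3 arrays were kept, and the one with the highest mean stood for its symbol, which left 11773 genes. Differences of weak probe sets are understated on this scale. A model with 1 mean per label group was fitted to the 36 arrays with limma 3.58.1 in R 4.3.3 and tested on simulated data. P-values were adjusted by Benjamini-Hochberg over all genes, with a threshold of 0.05. The PhIP mutated group holds 1 array, so it entered only the mean of all cancers.

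The 8 genes and the gene lists were chosen with earlier results of these data known. Named from each list were mainly members with the smallest p against normal tissue, and nonmembers by likeness to Cd74; others were named after their values were seen. Other constants, no filter, quantile normalization, all probe sets, RNA quality as a covariate, the replicate number as a block and each array left out were tried.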

Additional observations from a re-analysis of the deposited data

Results flagged for a closer look

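In groups of 4 or 5 arrays, 4 probe set values stood far from their group by Dixon's test, among 84 groups tested. Chance alone sets apart about 1 in 20 such groups. Radiation plus MNU mutated cancer 4 was low on 3 probe sets. It measured 70.4 on RT1-Ba 1381593_x_at, against 2564 to 5433 in the other 4 cancers, and 95.5 on RT1-Ba 1392334_at, against 2489 to 5287. On RT1-Bb 1371033_at it measured 53.1, against 1095 to 3040. Radiation cancer 3 was high on RT1-Ba 1377334_at, with 2048 against 70.7 to 121 in the other 3 radiation cancers. What set these arrays apart was not tested.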

How the results depend on the processing

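In 43 alternatives, 0 of the 8 genes passed in the cancers against normal tissue, the H-ras comparisons, radiation or the F test, and the 2064 differences of single genes gave 0 calls. Leaving out 1 array, the genes passing against normal tissue ran from 2734 (without normal tissue 2) to 4260, beside 4045 with all arrays. They ran from 0 to 4 for H-ras, from 0 to 10 within MNU, from 0 to 2 within radiation plus MNU, from 0 to 1 for the interaction, from 0 to 3 for radiation and from 0 to 8 for the F test. Calls of the 8 genes ran from 0 to 2 over the cancer groups against normal tissue and from 0 to 1 against spontaneous cancers. The F test gave 5 genes with the constant at the 40th percentile and 4 with all probe sets, beside 1. With the replicate block it gave 2, radiation gave 1 beside 0, and RT1-Da in PhIP nonmutated cancers against normal tissue was the 1 call over the groups (-1.35, limma adjusted p = 0.0477). Of 20 same-number pairs 8 correlated over 0.1 (-0.50 to 0.39). Pairs with different numbers were not measured, so this does not settle whether replicate numbers pair the samples. The block changed no other count of calls by over 1.5 times. Over deviations from group means Cd74 correlated with RT1-Bb at 0.41 (permutation, adjusted p = 0.0292) and with B cell markers at -0.46 (permutation, adjusted p = 0.0164). Over the cancers without the 2 lowest arrays, Cd74 correlated with B cell markers at 0.12 (permutation, adjusted p = 0.599). With adipocyte markers it correlated at 0.36 after quantile normalization (permutation, adjusted p = 0.0622) and at 0.29 without the 2 lowest arrays (adjusted p = 0.174). The causes were not tested. With 3 normal tissues, small differences were not detectable.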
